A study of Mus musculus with 23 samples.

Results

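TRIM genes encode the tripartite motif proteins, most of which are ubiquitin ligases. All protein-coding genes whose symbol is Trim followed by a number and at most 1 letter were taken from the deposited gene table, which gave 68 genes of 52636 in all and of 22027 that code for protein. They were followed in poly(A) RNA of mouse BMDMs (bone marrow-derived macrophages), cells cultured from marrow until they become macrophages. The cells were labelled wild type (WT) or Stk40 KO, a knockout of the pseudokinase gene Stk40. T0 cells were untreated, and cells at T6, T16 and T32 had received lipopolysaccharide (LPS), the bacterial outer membrane component that activates Toll-like receptor 4. No label gives the unit of time, the strain, sex or age of the mice, or the design of the Stk40 allele. Each of the 8 groups had 3 libraries except WT T16, which had 2, for 23 libraries in all.

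A TRIM protein carries a RING domain that binds a ubiquitin-charged E2 enzyme, then B-boxes and a coiled coil through which the proteins pair, and ends in a domain that picks the target. In the largest class the end domain is a SPRY (B30.2) fold, which includes the retroviral capsid sensor Trim5 and its relatives Trim6, Trim12, Trim30 and Trim34. In macrophages several members act in the pathways that lead from RNA and DNA sensors or Toll-like receptors to interferon, and many of these genes are themselves induced by interferon through a promoter sequence called the interferon-stimulated response element. Other members lie outside immunity: the TIF1 group (Trim24, Trim28, Trim33, Trim66) acts on chromatin, the COS-box members bind microtubules, and the NHL-repeat members include RNA-binding proteins.

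The promoter windows below are shown because they carry the core letters of that element in members whose RNA is described here. The letters GAAA, any 2 bases and GAAA were searched on both strands of the 300 bases around each RefSeq start (250 before and 50 after, GRCm38.p6). It was present in 1131 of 32851 promoters (3.44%), which belong to 27025 genes, 1079 of them with a match (3.99%). Of the 68 members, 53 had a promoter entry and 9 of these genes held the motif, in 10 of 67 promoters. Each sequence is given 5′ to 3′ on the strand of its gene, with the match in capitals (TTTC, any 2 bases, TTTC is the same motif read on the other strand); where 2 matches overlap, the capitals cover both. A match describes letters only.
Trim30a, chr7:104465200-104465249, minus strand: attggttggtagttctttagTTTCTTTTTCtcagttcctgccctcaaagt
Trim30d, chr7:104507861-104507910, minus strand: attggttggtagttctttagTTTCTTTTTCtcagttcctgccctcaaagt
Trim12c, chr7:104353349-104353398, minus strand: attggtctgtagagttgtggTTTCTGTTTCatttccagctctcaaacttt
Trim5, chr7:104288126-104288175, minus strand: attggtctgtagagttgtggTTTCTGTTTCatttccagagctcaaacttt
Trim34a, chr7:104244457-104244486, plus strand: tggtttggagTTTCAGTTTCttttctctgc
Trim21, chr7:102565447-102565476, minus strand: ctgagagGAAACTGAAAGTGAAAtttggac
Trim26, chr17:36836969-36837018, plus strand: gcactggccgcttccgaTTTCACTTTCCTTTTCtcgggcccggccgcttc
The Trim30a and Trim30d windows were identical over all 50 bases. The other members with a match were Trim12a and Trim2. Trim30b, Trim30c, Trim25, Trim56 and Trim6 had a promoter entry without a match.

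Total counts per library ranged from 19455080 to 44097733. Stk40 RNA was not lower in the libraries labelled KO: its mean was 56.5 counts per 1000000 counts of the library (CPM) against 48.1 in WT at T0 and 376 against 313 at T6, with log2 differences of 0.23, 0.27, 0.43 and 0.34 at T0, T6, T16 and T32 and adjusted p of 0.71, 0.64, 0.12 and 0.21 (edgeR). Which exons were deleted is not stated, so RNA level may not check the label, and KO below means the libraries labelled KO. Macrophage markers summed to at least 14320 CPM in every library, and 1 of 8 was called higher in KO at T0 and 1 lower at T32. Markers of neutrophils and their precursors summed to 316 to 602 CPM in WT and 601 to 694 CPM in KO at T0, with 1 of 8 called higher. The sums were 303 to 523 and 578 to 702 CPM at T6, 134 to 323 and 300.3 to 373 at T16, where they overlapped, and 48.8 to 68.1 and 84.5 to 131 at T32, with 0, 0 and 1 markers called; their part in the results was not tested. Stromal cell markers summed to 344 to 359 CPM in WT and 79.0 to 212 CPM in KO at T16. Their ranges overlapped at the other times, and 0 of 5 were called at any time. Of the NK cell markers, which summed to at most 1.68 CPM, 1 was called higher at T16 and 1 at T32. At T32 1 B cell marker was called lower. The part of these markers in the results was not tested. Y-linked RNA was present in 4 WT libraries and in no KO library. KO T0 replicate 1, WT T6 replicate 2, KO T6 replicate 2 and WT T16 replicate 2 stood apart from the others of their time, and results that rest on them are given with and without them. In KO T0 replicate 1, mitochondrial RNA was 0.355% of counts against 1.38% to 1.82% in the other T0 libraries, and the T0 calls lost without it are named beside them.

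Of the 68 members, 46 had enough counts to be tested. The other 22 were at or near 0, with 10 of them at 0 counts in every library; a direction among the 46 therefore says nothing of those 22. In bulk RNA, fewer cells of a type and less RNA per cell cannot be told apart. Per gene length (the deposited size-factor-adjusted RPKM), the highest members in untreated WT cells were Trim25 (73.6), Trim30a (39.0), Trim28 (37.6), Trim8 (29.5), Trim41 (28.6), Trim26 (23.5), Trim35 (22.9) and Trim47 (20.4). At T6 in WT the order was Trim30a (332), Trim25 (170), Trim30c (100.98), Trim30d (97.9), Trim21 (92.3) and Trim26 (84.4), so 3 of the 4 Trim30 copies were then among the 4 highest. The summed level of all TRIM genes in WT was 1832 ± 61.1 CPM at T0, 4979 ± 216 at T6, 2457 ± 344 at T16 and 2748 ± 165 at T32 (mean ± SD, n = 3, or 2 at T16). The same sums in KO were 2425 ± 138, 6221 ± 738, 3470 ± 174 and 3359 ± 192 CPM (n = 3). Trim30a, Trim30b, Trim30c and Trim30d together gave 12.3% of TRIM counts in WT and 20.7% in KO at T0, and 42.9% and 46.1% at T6.

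At T6 in WT, LPS raised the 4 Trim30 copies, Trim34a, Trim12a and Trim12c of the SPRY family and the interferon-linked members Trim21, Trim14 and Trim56. Outside the innate immune groups, 16 of 26 tested members were lower in WT at T6, 11 at T16 and 12 at T32. Of all genes tested, 31.9%, 17.2% and 21.9% were lower at those times. The higher ones outside these groups were Trim13, Trim35 and Trim36 at T6, Trim13 and Trim45 at T16, and Trim13 and Trim44 at T32. At T6 in WT, 15 of 46 members were higher than at T0 and 19 lower (edgeR quasi-likelihood test, adjusted p under 0.05 over 15782 genes); among all genes tested 27.3% were higher and 31.9% lower. The median log2 change was -0.28 over the members and -0.14 over all genes. By role, 7 of the 10 tested genes of the Trim5, Trim6 and Trim30 family rose and none fell, 5 of 10 other members of innate immune signalling rose and 3 fell, 3 of 4 TIF1 genes fell, and of the 14 members in no named group 1 rose and 10 fell.

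Trim30a, which restrains Toll-like receptor signalling to NF-κB, was the most abundant of its family. Its WT levels were 161, 198 and 150.4 CPM at T0 and 1354, 1359 and 1371 at T6, then 549.8 and 346 at T16 and 506, 546 and 548 at T32. All LPS libraries lay above all untreated ones; the log2 change was 3.0 ± 0.17 (SE) at T6 (adjusted p = 1.6e-11, edgeR).
Trim30b, a neighbouring copy, rose from 7.26, 8.75 and 4.36 CPM to 193, 209 and 159 at T6, a log2 change of 4.79 ± 0.29 (adjusted p = 2.5e-11, edgeR). It stayed further above T0 than Trim30a on the log2 scale, with changes of 3.61 at T16 and 3.37 at T32. Its levels were 62.8 and 102 CPM at T16 and 49.8, 63.7 and 95.8 at T32. From T6 to T32 it did not fall less than Trim30a on the log2 scale, as given below. The difference between the genes was not tested.
Trim30c had the largest rise of any tested member at T6: 2.64, 4.73 and 2.40 CPM became 201, 89.5 and 276, a log2 change of 5.87 ± 0.59 (adjusted p = 4.1e-08, edgeR). The lowest of those T6 values was WT replicate 2, and the lowest in KO at T6 (172 against 477 and 573 CPM) was also replicate 2. Trim30d went from 40.6, 58.7 and 39.6 CPM to 395, 379 and 426, a log2 change of 3.11 ± 0.23.

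**Figure D1:**
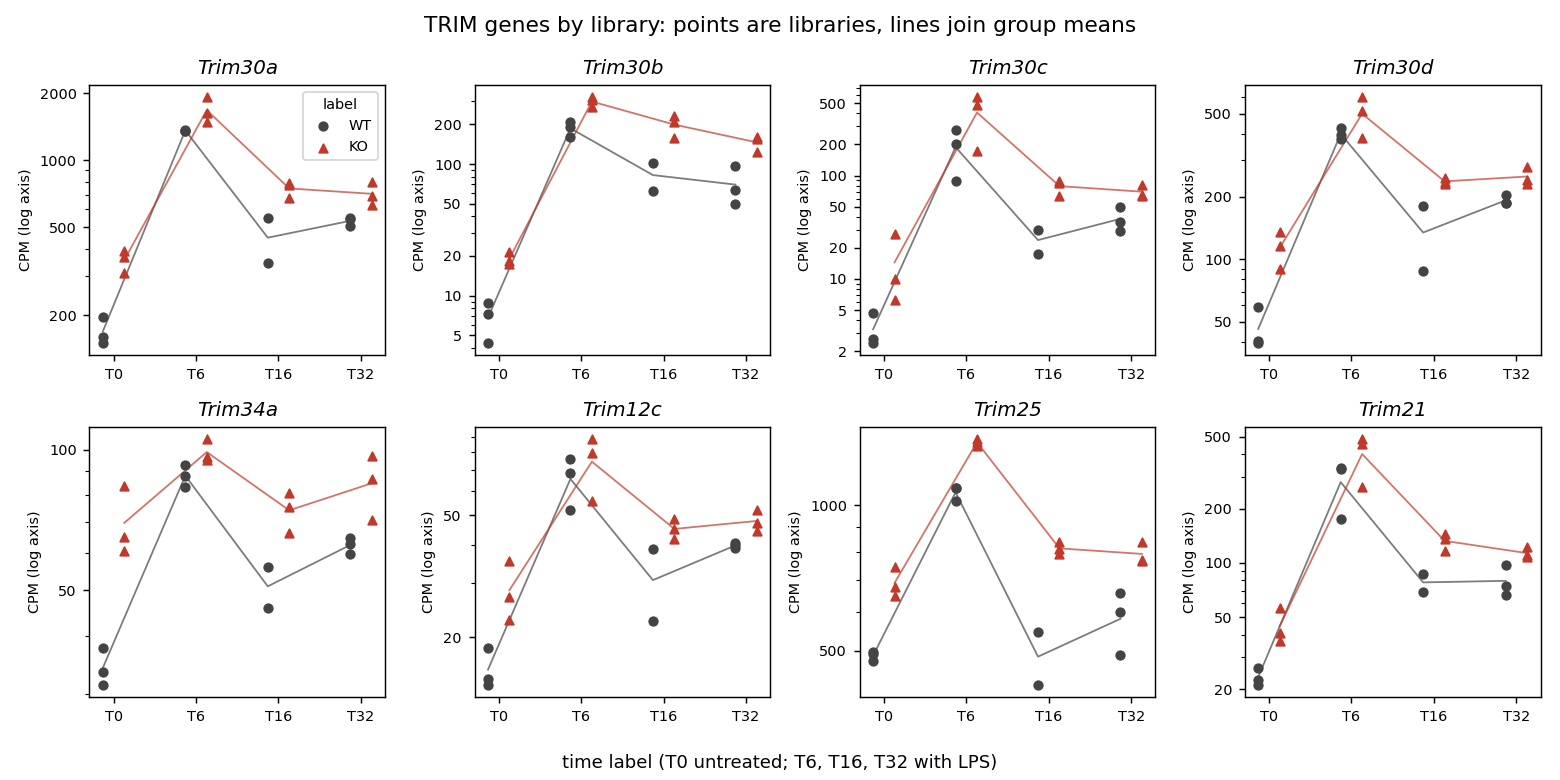
Level in CPM (log axis) of 8 TRIM genes against the time label; each point is 1 library, circles WT and triangles KO, and lines join group means. Levels peak at T6, where Trim30a reaches 1354 to 1371 CPM in WT, and the untreated KO triangles of Trim30a (311 to 388 CPM) lie above the untreated WT circles (150.4 to 198).

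These genes lie in a cluster of 10 members spanning 289.1 kb of chromosome 7 (104218793 to 104507849, GRCm38, GENCODE release 21): Trim6, Trim34a, Trim5, Trim12a, Trim34b, Trim12c, Trim30b, Trim30c, Trim30a and Trim30d in that order. Members at the Trim30 end had larger log2 changes at T6 in WT than those at the Trim6 end. Trim6, which makes free ubiquitin chains that activate the kinase IKKε, measured 2.19, 1.83 and 1.83 CPM at T0 and 2.77, 2.16 and 2.86 at T6 in WT, with a log2 change of 0.42 ± 0.24 that was not called (adjusted p = 0.14, edgeR). It passed the test later, with rises of 0.77 at T16 (adjusted p = 0.026) and 1.29 at T32 (adjusted p = 0.0002, edgeR), with 3.99, 5.32 and 4.99 CPM at T32. Trim5 had the same kind of course, with log2 changes of 0.34 at T6 (not called), 0.82 at T16 and 1.38 at T32, where its WT levels were 3.39, 3.42 and 2.79 CPM against 1.16, 1.43 and 1.10 at T0. In the direct comparison of T32 with T6 in WT, Trim6 (0.87) and Trim5 (1.04) were higher at T32 while Trim30a (-1.35), Trim30b (-1.42), Trim30c (-2.31), Trim30d (-1.06), Trim34a (-0.49), Trim12c (-0.72) and Trim12a (-1.19) were lower. Trim34b was called higher at T32 than at T6 (2.21, adjusted p = 0.026, edgeR), from levels below 0.45 CPM in every WT library.

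**Figure D2:**
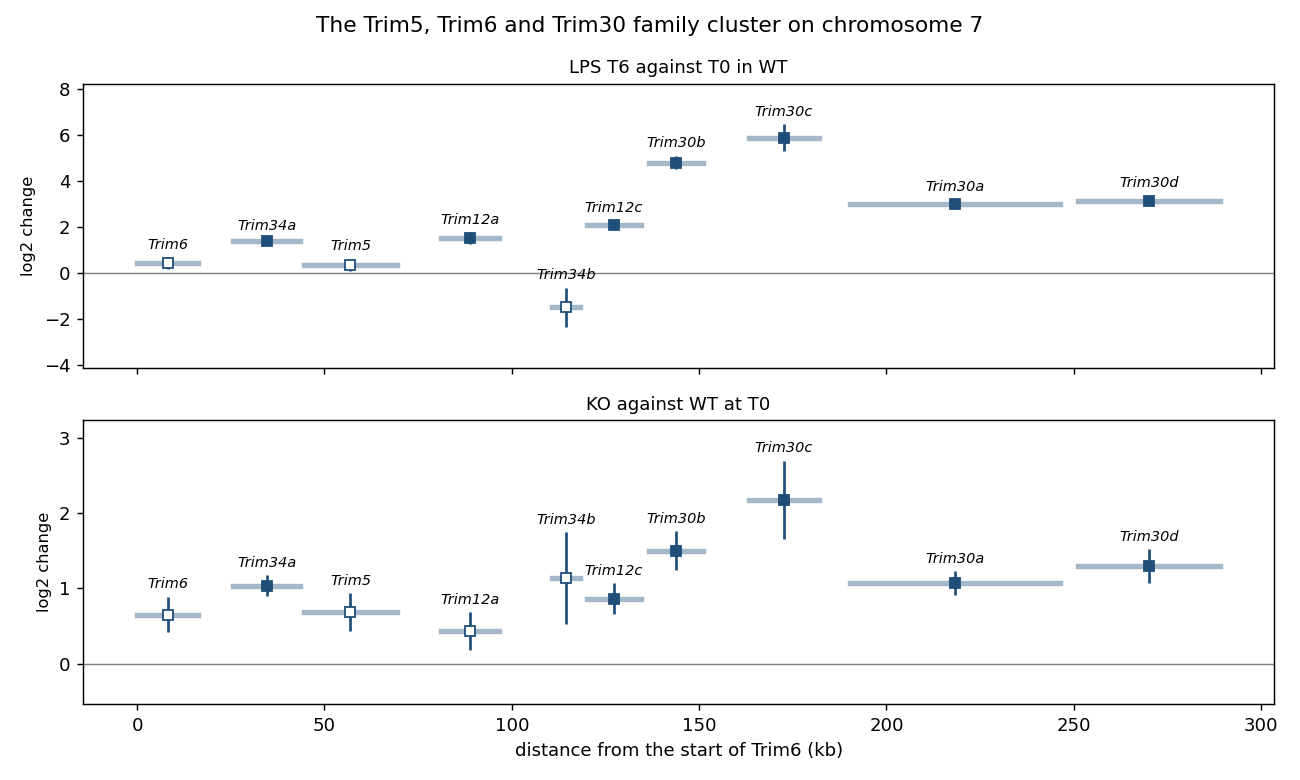
Log2 change with its standard error for the 10 members of the chromosome 7 cluster, placed by distance in kb from the start of Trim6; bars span each gene and filled squares have an adjusted p under 0.05. After LPS at T6 in WT the values run from -1.51 (Trim34b, not called) to 5.87 (Trim30c), and between untreated KO and WT cells all 10 are above 0, 6 of them called.

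Trim21, the cytosolic antibody receptor, was also among the largest rises. Its WT levels were 22.6, 26.2 and 21.1 CPM at T0 and 332, 175 and 336 at T6 (log2 change 3.59 ± 0.27, adjusted p = 5.1e-10, edgeR), and it stood at 87.4 and 68.7 CPM at T16. Trim14, a MAVS-binding member without a RING domain, had WT levels of 7.36, 7.28 and 7.38 CPM at T0 and 64.7, 14.6 and 70.6 at T6. Its replicate 2 at T6 lay near the untreated level, in KO as well (16.3 against 90.3 and 95.6 CPM). The log2 changes of Trim14 in WT were 2.77 ± 0.62, 2.30 ± 0.64 and 2.81 ± 0.61 at T6, T16 and T32, all called; without WT T16 replicate 1 the T16 value was 1.65 (adjusted p = 0.13). Trim14 overlaps Nans on the other strand and 33.9% of its 50-base words are shared, so its reads could not all be told apart. Trim25, which ubiquitinates the RNA sensor RIG-I, was the highest member at T0 and had the smallest log2 rise of these at T6 (1.12 ± 0.12), from 498, 492 and 475 CPM to 1018, 1083 and 1086; at T16 and T32 its change in WT was not called. Trim56 and Trim26 rose by 2.28 and 1.76 at T6. Of these, Trim56 stayed above T0 at T16 (1.56) and T32 (1.66), and Trim26 was at a log2 change of 0.30 at T16, which was not called, and 0.35 at T32, which was.

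Other members had courses of different shape. Trim13, a ligase anchored in the endoplasmic reticulum, measured 2.12, 2.22 and 3.55 CPM at T0 and 42.6, 32.6 and 38.6 at T6 in WT, a log2 change of 3.84 ± 0.28 (adjusted p = 3.6e-10, edgeR). By T16 it was at 5.66 and 3.53 CPM, still called above T0 at T16 (0.80) and at T32 (1.19). Reads of Trim13 overlap Dleu2 on the other strand.
Trim36, a microtubule-binding COS-box member, turned round. It went from 4.97, 4.48 and 5.59 CPM to 37.4, 33.0 and 31.7 at T6 (log2 change 2.76 ± 0.20), and then below its untreated level, to 2.61 and 1.28 at T16 (-1.35 ± 0.23) and 1.86, 1.74 and 1.26 at T32 (-1.62 ± 0.20, adjusted p = 3.2e-06, edgeR). In KO the same gene changed by 2.73, -0.84 and -1.89, all called.
Trim65, which activates the RNA sensor MDA5, moved the other way: 22.1, 20.04 and 18.2 CPM at T0, 6.94, 3.87 and 4.86 at T6 (-1.93 ± 0.26) and 33.3 and 23.04 at T16, where it was no longer called. Trim8, which acts on the kinase TAK1, fell from 106, 116 and 107 CPM to 75.1, 85.1 and 69.7 at T6 (-0.52 ± 0.11) and was above T0 at T32, with 140.3, 145 and 155 CPM (0.41 ± 0.11, adjusted p = 0.0036, edgeR). The Trim8 rise at T16 (0.32 in WT, 0.27 in KO) turned to -0.13 and -0.18 without TMM scaling, as did the T6 rise of Trim35 (0.72 and 0.66 against -0.09 and -0.17) and that of Trim34a in KO (0.50 against -0.34).

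The largest fall at T6 in WT was that of Trim7, the glycogenin partner, from 7.33, 5.81 and 6.88 CPM to 0.500, 0.952 and 0.613 (-3.32 ± 0.34, adjusted p = 6.9e-08, edgeR). Trim2, an NHL-repeat ligase known from neurons, fell by 2.86 on the log2 scale at T6 but was back at 2.97, 2.21 and 1.98 CPM at T32, against 1.58, 1.43 and 2.69 at T0. Trim47 fell from 55.7, 49.8 and 50.3 CPM to 9.47, 9.08 and 9.71 at T6 (-2.46 ± 0.17) and stayed low at T32 (20.3, 17.98 and 15.7 CPM, -1.53 ± 0.16). Trim16, which binds galectins at damaged membranes, fell by 2.16, 2.27 and 1.90 on the log2 scale at T6, T16 and T32. Trim59 fell by 1.58 at T16. Trim24, a TIF1 co-regulator, went from 16.5, 17.1 and 17.2 CPM to 3.54, 5.14 and 4.50 at T6 (-1.96 ± 0.18). In each of these genes the T6 WT libraries lay below all untreated ones. Over all 46 members, 19 had T6 groups wholly below T0 and 15 wholly above (all genes: 35.3% and 28.7%).

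**Figure D3:**
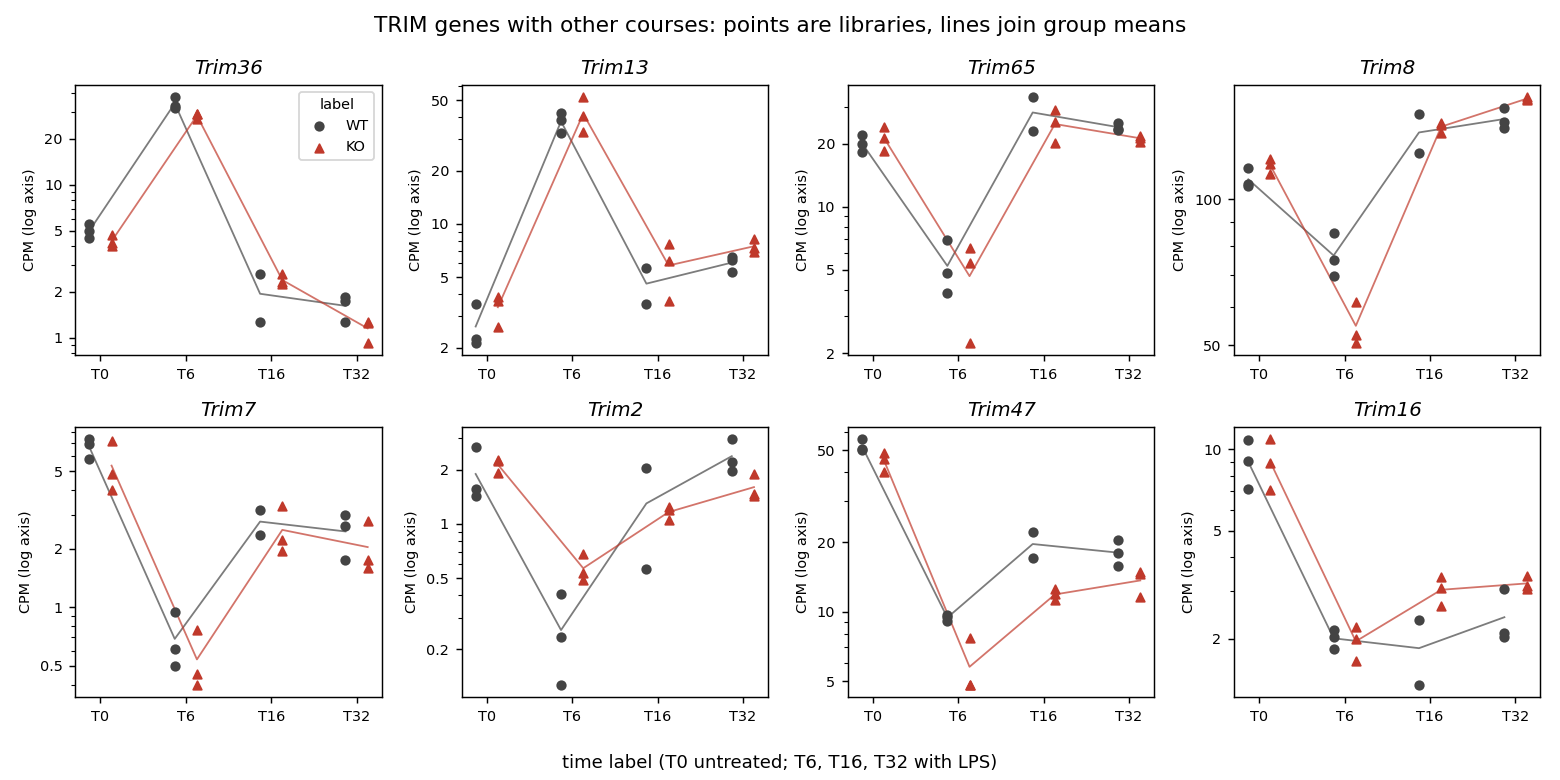
Level in CPM (log axis) of 8 TRIM genes with other courses against the time label; each point is 1 library, circles WT and triangles KO, lines join group means. Trim36 reaches 31.7 to 37.4 CPM in WT at T6 and ends at 1.26 to 1.86 at T32, below its untreated 4.48 to 5.59, while Trim65 is low at T6 alone.

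At T16 in WT, 14 members were higher and 11 lower than at T0 (all genes: 18.8% and 17.2%), and at T32 the counts were 15 and 12 (24.5% and 21.9%). The comparisons with T0 share the same untreated libraries. From T6 to T32 in WT, 17 members rose and 14 fell (27.5% and 23% of all genes). In KO the counts were 15 higher and 17 lower at T6 (26.2% and 32.4%), 11 and 13 at T16 (20.4% and 23.3%), 11 and 11 at T32 (18.2% and 20%), and from T6 to T32 16 and 13 (26.4% and 23.3%). For 39 of the 46 members the highest mean fell at the same time in both genotypes. The balance of rises and falls depends on the scaling: with library totals in place of TMM factors, which moves the median log2 change of all genes by -0.83 to 0.49, the splits became 7 higher and 17 lower (WT T16), 12 and 17 (WT T32), 23 and 11 (WT T32 against T6), 10 and 27 (KO T6), 8 and 20 (KO T16), 8 and 18 (KO T32), and 21 and 8 (KO T32 against T6). WT T6 was not exempt: library totals moved the median there by -0.80, and Trim35 was no longer called higher (-0.09, adjusted p = 0.68, edgeR). With DESeq2, KO T32 against T6 gave 14 and 17. How many of all genes were called in these alternative fits is not given.

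**Figure D4:**
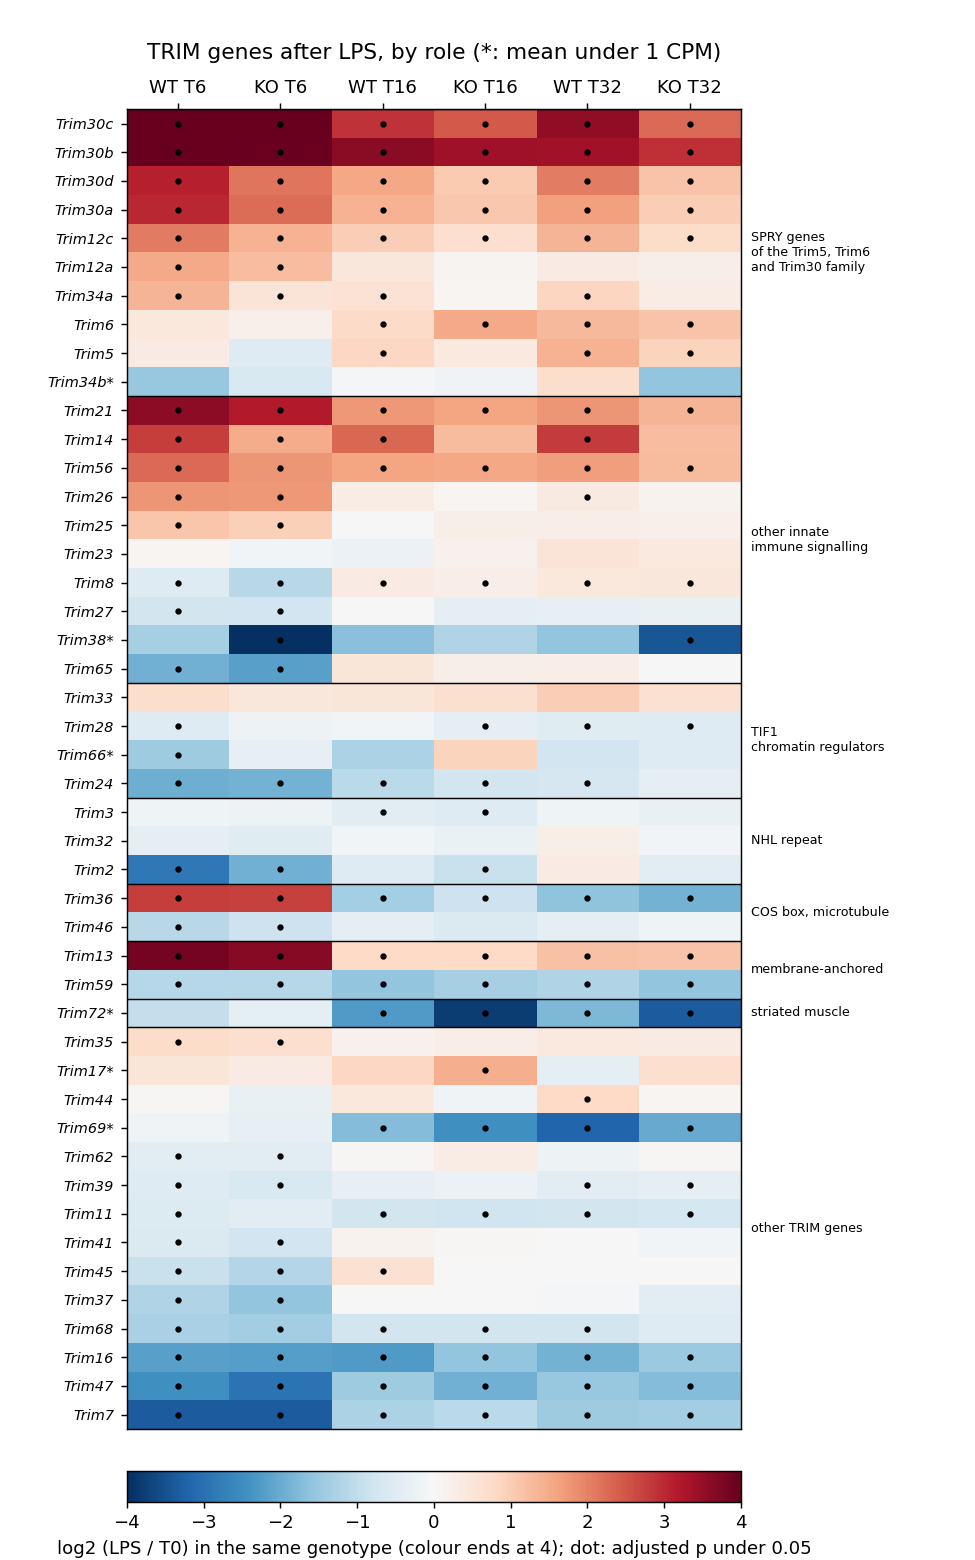
Log2 change against T0 of the same genotype for the 46 tested TRIM genes (rows, by role; an asterisk marks a mean under 1 CPM) at T6, T16 and T32 in WT and KO (columns); red is higher, blue lower, and a dot marks an adjusted p under 0.05. The Trim30 copies and Trim21 are red in all 6 columns, with WT T6 values of 3.0 to 5.87, and Trim7, Trim47 and Trim16 are blue in all 6.

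Before any LPS, KO cells had more RNA of 7 members, and no member was called lower. These were Trim30a, Trim30b, Trim30c, Trim30d, Trim34a and Trim12c of the chromosome 7 cluster, and Trim25. Thus 7 of 46 members were called higher where 1.83% of all genes were, and 0 lower where 0.114% were. An unadjusted p under 0.05 was reached by 14 members, for which no share of all genes is given. Groups did not overlap for 14 members higher in KO and 5 lower (all genes: 8.79% and 6.3%). The median log2 difference was 0.10 over the members and 0.00 over all genes.
Trim34a had the lowest adjusted p: 31.4, 37.6 and 33.4 CPM in WT and 60.6, 65.1 and 83.6 in KO, a log2 difference of 1.03 ± 0.14 (adjusted p = 0.0002, edgeR). Its 3 KO libraries lay above its 3 WT libraries. Trim34a shares 59.7% of its 50-base words with another gene, chiefly Trim34b, so reads of the pair are uncertain, although Trim34b itself stayed below 0.73 CPM.
Untreated Trim30a levels were 161, 198 and 150.4 CPM in WT and 367, 311 and 388 in KO (1.07 ± 0.16, adjusted p = 0.00061, edgeR). Trim30b measured 7.26, 8.75 and 4.36 CPM in WT and 21.6, 17.5 and 18.2 in KO (1.5 ± 0.26, adjusted p = 0.0019). Trim30d measured 40.6, 58.7 and 39.6 CPM in WT and 135, 90.1 and 116 in KO (1.29 ± 0.22, adjusted p = 0.0018). The groups did not overlap for any of these 3 copies.
Trim30c differed most in size, at 2.64, 4.73 and 2.40 CPM in WT and 27.1, 6.30 and 10.05 in KO (2.17 ± 0.52, adjusted p = 0.03, edgeR), but KO replicate 1 set much of this: without that library the log2 difference was 1.34 (adjusted p = 0.36). Trim12c stood at 14.0, 18.4 and 14.7 CPM in WT and 35.5, 22.9 and 27.1 in KO (0.86 ± 0.21, adjusted p = 0.031), and at 0.67 (adjusted p = 0.24) without KO replicate 1. Trim25 measured 498, 492 and 475 CPM in WT and 743, 649.6 and 678 in KO (0.50 ± 0.12, adjusted p = 0.034), and 0.44 (adjusted p = 0.18) without the same library. With KO T0 replicate 1, WT T0 replicate 1 or WT T0 replicate 3 left out in turn, 4 members were called, and Trim30a, Trim30b, Trim30d and Trim34a kept their calls in every fit that left out 1 library. Without the 4 libraries that stood apart 8 members were called higher, with Trim12a, Trim14 and Trim21 gained and Trim25 and Trim30c lost. No share of all genes is given for the fits that left libraries out. Trim21 lay just outside the threshold, at 22.6, 26.2 and 21.1 CPM in WT and 56.1, 36.8 and 40.9 in KO (0.94 ± 0.24, adjusted p = 0.053). Trim14 in KO was 47.7 CPM in replicate 1 and 10.6 and 13.2 in the others, against 7.28 to 7.38 in WT.

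At T6, the time of highest TRIM RNA, edgeR called no member between genotypes (0 of 46, against 0.298% of all genes). Groups did not overlap for 7 members higher in KO and 5 lower (all genes: 5.96% and 5.08%). An unadjusted p under 0.05 was reached by 9 members, and DESeq2 called 3 (Trim25 higher, Trim47 and Trim8 lower). The share of all genes is not given for either count. Trim30a measured 1354, 1359 and 1371 CPM in WT and 1636, 1480 and 1920 in KO, without overlap (0.30 ± 0.16, adjusted p = 0.6). Trim25 was also without overlap, at 1018, 1083 and 1086 against 1325, 1350 and 1368 CPM (0.34 ± 0.12, adjusted p = 0.3). Trim47 had 9.47, 9.08 and 9.71 CPM in WT and 4.84, 7.66 and 4.82 in KO (-0.72 ± 0.17, adjusted p = 0.076), and was called lower without KO T6 replicate 2 (-0.96, adjusted p = 0.01). Trim8 had 75.1, 85.1 and 69.7 CPM in WT and 61.4, 50.6 and 52.6 in KO (-0.48 ± 0.11, adjusted p = 0.06), and was called in 4 of the fits that left out 1 library. With all 4 libraries that stood apart left out, the Trim47 call was the only one at T6. At T6 the WT and KO libraries of the same replicate number deviated together in all 3 pairs (r of 0.33, 0.59 and 0.36). Replicate 2 stood apart in both groups, and libraries of different numbers were not compared. Whether the numbers pair the libraries is therefore not shown. With the number as a block within T6, 2 members were called, both lower in KO, Trim8 (-0.48 ± 0.10, adjusted p = 0.03, edgeR) and Trim47 (-0.74 ± 0.16, 0.038), against 0.906% of all genes. In the same fit Trim21 had 0.53 ± 0.16 (adjusted p = 0.14) and Trim30c 1.08 ± 0.38 (0.22), with KO above WT in all 3 pairs of each.

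At T16, 6 members were higher in KO (Trim25, Trim30a, Trim30b, Trim30d, Trim34a and Trim6) and 2 lower (Trim28 and Trim47), where 4.16% of all genes were higher and 3.48% lower. With library totals as scaling the split was 3 and 3. The clearest by size was Trim6, with 4.30 and 2.29 CPM in WT and 9.18, 8.0 and 9.34 in KO (1.41 ± 0.26, adjusted p = 0.004, edgeR). Trim25 measured 547 and 425 CPM in WT and 839.9, 792 and 809 in KO (0.74 ± 0.14, adjusted p = 0.004). Trim30b had 62.8 and 102 CPM in WT against 209, 159 and 230.5 in KO (1.28 ± 0.28, adjusted p = 0.011). Trim30a (549.8 and 346 against 772, 674 and 793 CPM; 0.74 ± 0.18), Trim30d (0.82 ± 0.25) and Trim34a (0.54 ± 0.16) were higher too. Trim28, the KRAB zinc finger co-repressor KAP1, had 119.9 and 139 CPM in WT and 87.7, 89.2 and 95.3 in KO (-0.51 ± 0.15, adjusted p = 0.04), and Trim47 had 17.1 and 22.1 against 11.2, 12.5 and 11.9 (-0.72 ± 0.18, adjusted p = 0.019). These calls lean on 2 WT libraries that differ from each other: without WT T16 replicate 2 only Trim30b was called, with Trim6 at 1.04 (adjusted p = 0.093), Trim25 at 0.57 (0.091) and Trim30a at 0.44 (0.33). Without WT T16 replicate 1 the count was 13, although Trim30b lost its call there (0.97, adjusted p = 0.051). Without the 4 libraries that stood apart 7 were called: Trim25, Trim30b, Trim30c and Trim6 higher, and Trim28, Trim44 and Trim47 lower. Leaving out KO T16 replicate 1 or 3 gave 3, WT T32 replicate 1 gave 5, and a fit on the T16 libraries alone gave 0. Shares of all genes are not given for these fits or for library totals.

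At T32, Trim25 and Trim30b were called higher in KO and none lower (2 of 46; 3.05% of all genes were higher and 3.34% lower). Trim30b measured 49.8, 63.7 and 95.8 CPM in WT and 124, 154 and 161 in KO (1.07 ± 0.24, adjusted p = 0.011, edgeR). Trim25 measured 600.1, 489 and 657 CPM in WT and 766, 839.7 and 771 in KO (0.45 ± 0.12, adjusted p = 0.032). Neither pair of groups overlapped. The number of calls moved with the libraries used: none was made without WT T32 replicate 1, WT T32 replicate 2 or KO T32 replicate 3, and 1 without KO T32 replicate 2. A fit on the T32 libraries alone called 10 members (8 higher and 2 lower), and leaving out the 4 libraries that stood apart called 11 (8 and 3). Library totals gave 1 higher and 2 lower. For these fits the share of all genes is not given, so the counts cannot be set against it.

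Averaged over the 4 times, 11 members were higher in KO and 4 lower, where 12.1% of all genes were higher and 10.3% lower. The higher ones were the 4 Trim30 copies, Trim34a, Trim12c and Trim6 of the cluster and Trim21, Trim25, Trim26 and Trim56 of innate immune signalling; in the cluster, 7 of 10 tested genes were higher and none lower. Trim30b had the lowest adjusted p (1.13 ± 0.13, adjusted p = 5.7e-06, edgeR), followed by Trim25 (0.51 ± 0.06, 1.6e-05), Trim34a (0.54 ± 0.07, 2.9e-05) and Trim30a (0.63 ± 0.08, 3.4e-05). Trim30c differed by 1.47 ± 0.25, Trim30d by 0.70 ± 0.11, Trim6 by 0.75 ± 0.12, Trim21 by 0.68 ± 0.13, Trim12c by 0.47 ± 0.11, Trim56 by 0.42 ± 0.12 and Trim26 by 0.19 ± 0.06. Trim26, which acts on nuclear IRF3, was the smallest of these and came to 0.02 with library totals. The lower ones were Trim47 (-0.51 ± 0.08, adjusted p = 0.00023), Trim28 (-0.26 ± 0.07, 0.011), Trim27 (-0.28 ± 0.08, 0.017), a ligase that binds the IKK kinases, and the low TIF1 gene Trim66 (-0.96 ± 0.34, 0.047), which was at most 0.452 CPM in any library. With library totals, which move the median log2 difference of all genes by -0.17, the split was 8 higher and 13 lower. Without the 4 libraries that stood apart it was 13 and 6. With the block within T6 it was 13 and 4, where 30.3% of all genes were called (2413 of 15782 higher and 2362 lower). The share of all genes is not given for library totals or for the fit without the 4 libraries. All 15 kept their direction under every alternative run. With the presence of Y-linked RNA (over 1 CPM) as a covariate, 13 members were called, without Trim27 and Trim66. No KO library held that RNA, so the covariate was estimated within WT alone. The share of all genes is not given for that fit.

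**Figure D5:**
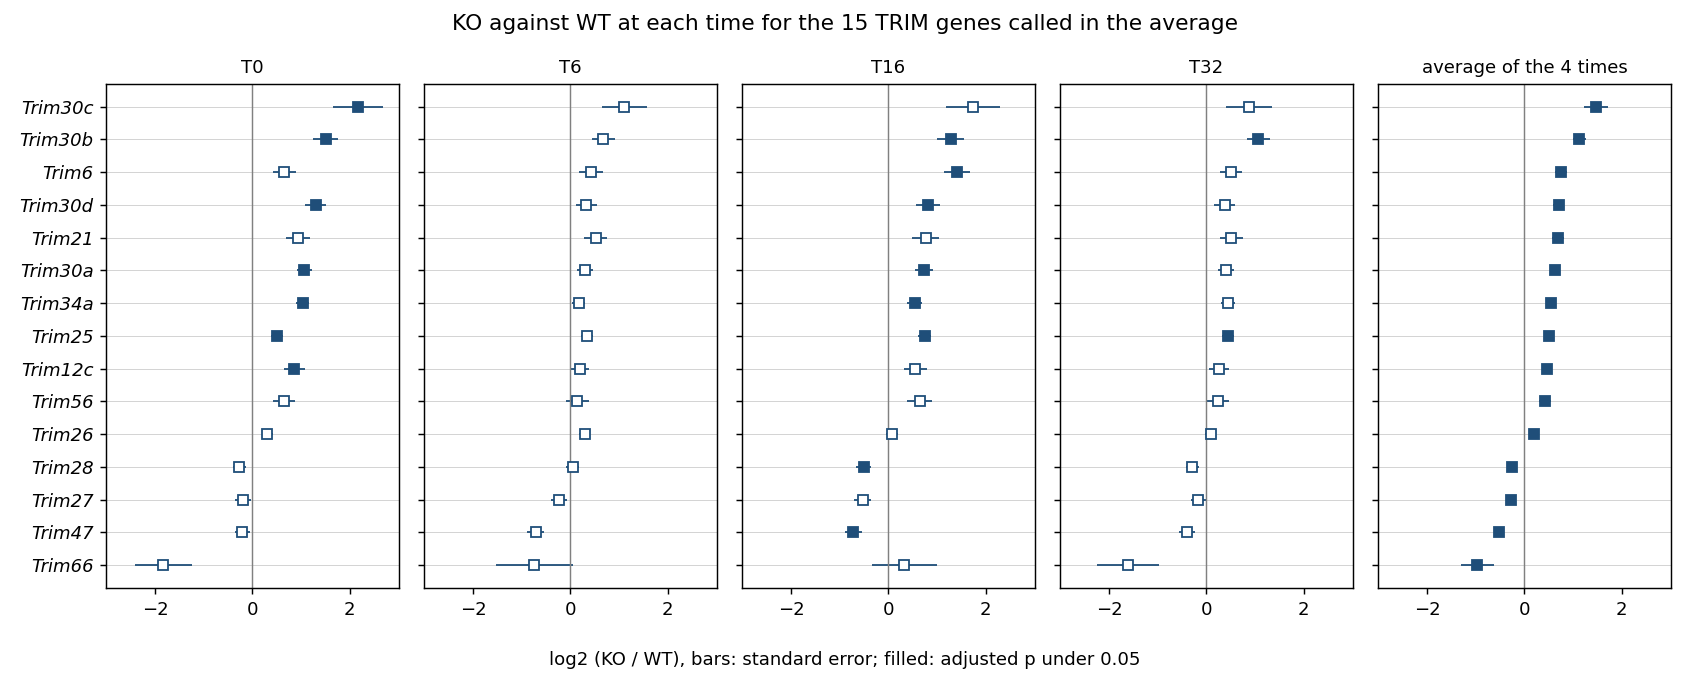
Log2 difference of KO from WT (squares) with its standard error (bars) at each time and averaged, for the 15 TRIM genes called in the average; filled squares have an adjusted p under 0.05. The 4 Trim30 copies are above 0 at every time, from 1.07 to 2.17 at T0 and from 0.30 to 1.11 at T6, and no square is filled at T6.

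Whether the response to LPS differed between the genotypes was tested jointly over T6, T16 and T32, and edgeR called no member (0 of 46, against 0.456% of all genes). An unadjusted p under 0.05 was reached by 6, and DESeq2 called 2, Trim8 and Trim34a. These had the lowest adjusted p in edgeR as well, Trim8 at 0.14 and Trim34a at 0.17, followed by Trim30a at 0.31. Trim34a rose by 1.37 ± 0.14 in WT and by 0.50 ± 0.14 in KO at T6, Trim30a by 3.0 ± 0.17 and 2.24 ± 0.17, and Trim8 fell by 0.52 ± 0.11 and 1.10 ± 0.11. For Trim34a and Trim30a the KO level was higher at T0 and, on the log2 scale, closer to WT at T6. For Trim8 the genotypes overlapped at T0 and did not at T6. The T0 levels of Trim8 were 106, 116 and 107 CPM in WT against 121, 113 and 118 in KO. Without WT T16 replicate 1, 5 members were called: Trim8, Trim30a, Trim30d, Trim34a and Trim36. With the 4 libraries that stood apart left out, 2 were called, Trim34a (adjusted p = 0.041) and Trim44 (0.047). The share of all genes is not given for the unadjusted, DESeq2 or leave-out counts of the interaction.

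Promoter letters and genotype calls were set side by side as a description. Of the 11 members higher in KO in the average, all had a promoter entry and 6 held the GAAA pair (Trim12c, Trim21, Trim26, Trim30a, Trim30d and Trim34a, whose windows are printed above). None of the 4 lower members held it. Among the 31 tested members not called in the average, 21 had an entry and 3 held it (Trim12a, Trim2 and Trim5). Trim30b, with the lowest adjusted p, held no match in its window.

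Other genes of the pathways in which TRIM ligases act were read from lists. Of 22 interferon-induced genes, all tested, 19 were higher in untreated KO cells and none lower (median log2 difference 1.57), against 1.83% of all genes higher. At T6 edgeR and DESeq2 each called 0, with a median of 0.33 and 5 genes at an unadjusted p under 0.05 in edgeR. The share of all genes at that unadjusted p is not given. At T16 2 were higher (4.16% of all genes), at T32 3 (3.05%) and in the average 21 (12.1%). Ifit1, an RNA-binding antiviral protein, had a mean of 90.7 CPM in WT and 354 in KO at T0 (1.97 ± 0.24, adjusted p = 7.1e-05, edgeR). Of 19 genes of RNA and DNA sensing, 6 were higher at T0 and none lower: Ddx58 (RIG-I, the target of Trim25), Ifih1, Dhx58, Mb21d1, Zc3hav1 and Irf7; in the average 10 were higher and Tmem173 (STING) was lower, against 12.1% and 10.3% of all genes. Ddx58 itself differed by 1.38 ± 0.20 at T0. The lists share genes: Ddx58, Ifih1 and Irf7 are also counted among the interferon-induced genes, as are Isg15 and Usp18 of the next list. Of the 17 tested genes of ubiquitin and ISG15 conjugation, 5 were higher in KO at T0 (1.83% of all genes) and none lower, all of them on the ISG15 side: Isg15, its E1 Uba7 (0.79), its E2 Ube2l6 (1.15), its ligase Herc6 (1.5) and its protease Usp18 (1.44). Of 14 partners of the TIF1 group, 4 were higher in KO in the average (Smad2, Smad3, Atf7ip and Morc3) and 1, Chd3, was lower, where 12.1% and 10.3% of all genes were; 1 of 14 is no higher a share than that background. Pml, a TRIM gene under another symbol that forms nuclear bodies, was higher in KO at T0 (0.87 ± 0.16, adjusted p = 0.0037, edgeR).

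Several members share sequence with near copies, so the split of 50-base reads between them is uncertain. The share of 50-base words found in another gene was 59.7% for Trim34a, 56.8% for Trim34b, 36.6% for Trim5, 33.7% for Trim12c and 10.5% for Trim12a, but only 7.49% for Trim30d, 5.98% for Trim30a, 1.48% for Trim30b and 0.66% for Trim30c. With the 4 Trim30 copies summed, the KO against WT log2 difference was 1.15 at T0 (adjusted p = 0.00056, edgeR), 0.43 at T6 (0.38), 0.87 at T16 (0.012) and 0.49 at T32 (0.099). Trim47 and Trim65 overlap on the same strand and share 6.58% of Trim47 words; at T6 in WT both fell, and at T32 Trim47 was low and Trim65 was not.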

How the data were processed

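Polyadenylated RNA was sequenced as single-end 50 bp reads from TruSeq version 2 libraries, per the labels' protocols; that kit does not mark strand, so overlapping and antisense genes cannot be separated. Reads were aligned with GSNAP to GRCm38, per the submitters' processing notes; no version or counting tool is named there. Raw counts per gene, deposited by the authors, were used for all tests, and the deposited size-factor-adjusted RPKM (nRPKM, per the file headers) to compare genes per length. Genes passing filterByExpr (15782) were fitted over all 23 libraries with edgeR 4.0.16 (R 4.3.3; TMM, robust quasi-likelihood, a mean per genotype and time), with Benjamini-Hochberg adjustment over all of them; called means adjusted p under 0.05. The script was tested on simulated data. For KO against WT at T0 it called 57% of 2-fold and 74% of 4-fold changes, with 5 false calls. For T6 against T0 in WT it called 43% and 81%, with 8 false calls. A gene that was not called may therefore still differ. CPM use TMM-scaled totals. DESeq2 1.42.0, library totals, no low-count filter, only the groups compared, a Y-linked covariate and leaving out each library were alternatives; the replicate block (over all libraries or within T6) and leaving out 4 libraries together were added after seeing the data.

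Members and gene lists were chosen with earlier results of these data known. Named genes are up to 12 members called between genotypes and the 3 with the lowest interaction p-values. The 4 largest rises and falls after LPS in WT at each time are named too. These rises and falls were picked among called members with a mean of at least 1 CPM and no overlap between the groups compared. Others named were chosen after their values were seen. Groups came from the genotype and time labels. The labels do not say whether replicates are separate mice or cultures, so the p-values may reflect technical spread alone. No 2 replicates differed by less than sampling noise. Replicate numbers came from the deposited sample table. At T6 every same-numbered pair of WT and KO libraries correlated above 0.1 in its deviations. This held for no other groups that a test set directly against each other. It did hold for some groups not compared directly, given at the end. At T6 replicate 2 stood apart in both genotypes and pairs of different numbers were not examined, so a pairing by number is not shown. Intervals are not given, and total counts of 19455080 to 44097733 limit precision for genes under 1 CPM. Promoters are RefSeq, GRCm38.p6.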

Additional observations from a re-analysis of the deposited data

Results flagged for a closer look

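Among the members that were too low to test, Trim15, Trim31 and Trim40 had 29, 28 and 31 counts in KO T0 replicate 2 and at most 1 count in any of the other 22 libraries. They drew attention as a signal in genes outside every comparison, above the limit of 3 counts that a count of 0 allows. They lie together on chromosome 17. In the same library 166 genes had at least 20 counts and at least 10 times the count of every other library, and no such gene was found in any of the other 22. These genes included Lypd8 (4005 counts, 0 elsewhere), Car1 (1086), Zg16 (882), Pigr (642), Krt20 (415), Epcam (327) and Muc2 (318), which are known from intestinal epithelium, and all 166 together held 0.107% of the library's counts. Without KO T0 replicate 2, 8 members were called at T0, all higher in KO, against 7 with it. The share of all genes in that fit is not given.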

How the results depend on the processing

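No called result changed sign among those reported, apart from the 5 LPS changes of Trim8, Trim35 and Trim34a given above under library totals. Of 32 genotype calls, 17 kept their call in every fit that left out 1 library. Library totals lost 10 of the 32, and no low-count filter lost 8. Fitting only the groups compared kept 6 and lost 11 of the calls made at single times. Over all 256 called pairs of member and comparison, 40 were no longer called under library totals. The 24 LPS changes named by rule in WT kept their calls under every alternative except Trim14 at T16 without WT T16 replicate 1. They were picked as called and without overlap, so this says little of other LPS changes. Shares of all genes are given only for the main fit and the block within T6. The counts below therefore show how calls moved and not a trait of TRIM genes. Counts of members called between genotypes that moved by over 1.5 times were as follows. At T0 (7), library totals and the T0 libraries alone each gave 4. At T6 (0), library totals gave 2, DESeq2 3 and leaving out the 4 libraries that stood apart 1. At T16 (8), no low-count filter gave 5 and the T16 libraries alone 0. At T32 (2), no low-count filter gave 1, the T32 libraries alone 10 and leaving out the 4 libraries 11. For the interaction (0), DESeq2 gave 2 and leaving out the 4 libraries 2. With each library left out in turn, the ranges were 4 to 8 at T0, 0 to 1 at T6, 1 to 13 at T16, 0 to 3 at T32, 14 to 19 in the average and 0 to 5 for the interaction. For LPS in WT they were 32 to 34 at T6, 17 to 26 at T16, 25 to 29 at T32 and 26 to 31 for T32 against T6; in KO they were 29 to 35, 20 to 26, 20 to 28 and 25 to 30. The cause of these shifts was not tested. Deviations of same-numbered libraries correlated from -0.41 to 0.59 over 77 pairs, with 26 over 0.1. Every same-numbered pair of WT and KO libraries at T6 was over 0.1 (0.33 to 0.59). Replicate 2 stood apart in both of these groups, and whether the numbers pair the libraries was not tested. No other groups that a test set directly against each other had every pair over 0.1. Among groups not set directly against each other, every pair was over 0.1 for KO T16 with KO T32 (0.105 to 0.353). The same held for WT T16 with KO T0 (0.366 to 0.375) and with KO T6 (0.282 to 0.457). WT T16 had 2 libraries, whose deviations from their mean mirror each other, so those 2 pairs are not independent. With the replicate block within T6, 2 members were called at T6 (against 0) and the average and the interaction gave 17 and 0. The shares of all genes called in that fit were 0.906%, 30.3% and 0.912%. With the replicate block over all libraries, Trim34a at T16 (0.50, adjusted p = 0.053) and Trim66 in the average (adjusted p = 0.052) were no longer called, and no count of calls moved by over 1.5 times. Members under 1 CPM, such as Trim38 and Trim66, are limited by depth.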
